A study of Mus musculus with 4 samples.

Results

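The genes described here encode 9 enzymes and enzyme subunits that carry pyruvate into the tricarboxylic acid (TCA) cycle of mitochondria and turn the cycle: Pdha1, Cs, Idh2, Idh3a, Ogdh, Dlst, Suclg1, Fh1 and Mdh2. They were chosen by symbol, and all 9 had 1 row each among the 20555 genes of the deposited table. RNA came from bulk mammary tumours of mice that carry PyMT, the polyoma virus middle T antigen, in both groups. For Control-PyMT (2 libraries, the controls below) the labels list PyMT and no other allele. MYC-PyMT (2 libraries, the MYC tumours below) carries S100a8-cre together with Rosa26-LSL-MYC, so that MYC is switched on where the neutrophil gene S100a8 drives Cre, and the labels give neither the strain, the age of the mice nor the species of the MYC sequence. The labels do not say whether the libraries of a group came from separate mice, so every p-value below reflects library-to-library spread that could be technical alone.

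The cycle oxidises the acetyl group of acetyl-CoA and hands the electrons to NADH and FADH2 for respiration, while citrate, 2-oxoglutarate, succinyl-CoA and oxaloacetate leave it as building blocks. Pyruvate dehydrogenase makes acetyl-CoA from pyruvate, and kinases shut this complex off by phosphorylating the subunit that Pdha1 encodes. MYC is known in other systems to raise genes of mitochondria and of glutamine use, and dividing tumour cells draw on the cycle for citrate and aspartate.

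Values are scaled counts, which are reads divided by a size factor per library. Depth was 31783846 to 34190913 reads per library. Scaled counts summed to 30155556 and 27926574 in Control-PyMT against 34408602 and 34928670 in MYC-PyMT, so they are not shares of an equal total. The row of the Myc gene stood at 1832 and 2820 scaled counts among the controls against 3215 and 2815 among the MYC tumours, so its groups overlapped. Whether that row holds reads of the Rosa26-LSL-MYC sequence was not tested. The luminal epithelial marker Epcam stood at 26099 and 23374 scaled counts among the controls against 19648 and 19804 among the MYC tumours. Krt8 stood at 28743 and 27667 against 22211 and 28747. Of 8 luminal markers, 3 were called lower and 0 higher, against 24.6% and 23.3% of all genes tested. In bulk tumours, fewer cells of a type and less RNA per cell cannot be told apart.

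Of the 9 enzyme genes, 8 were higher in MYC-PyMT and 1, Ogdh, did not pass the test (limma, Benjamini-Hochberg adjusted p under 0.05 over 16725 genes). The background was wide: 47.9% of all genes tested were called, 23.3% higher and 24.6% lower. The same shares are the background for the list counts below. The median log2 change was 0.83 for the 9 genes and -0.02 for all genes tested. A rise of at least 2-fold was called for 3 of the 9, Mdh2, Idh3a and Idh2, against 14.4% of all genes. In the same 8 genes both MYC-PyMT libraries lay above both Control-PyMT libraries, as they did for 37% of all genes, and in Ogdh both lay below, as for 38.7%. The groups of all 9 were therefore without overlap, against 75.7% of all genes. These counts describe the 9 genes and were not tested against other lists.

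**Figure D1:**
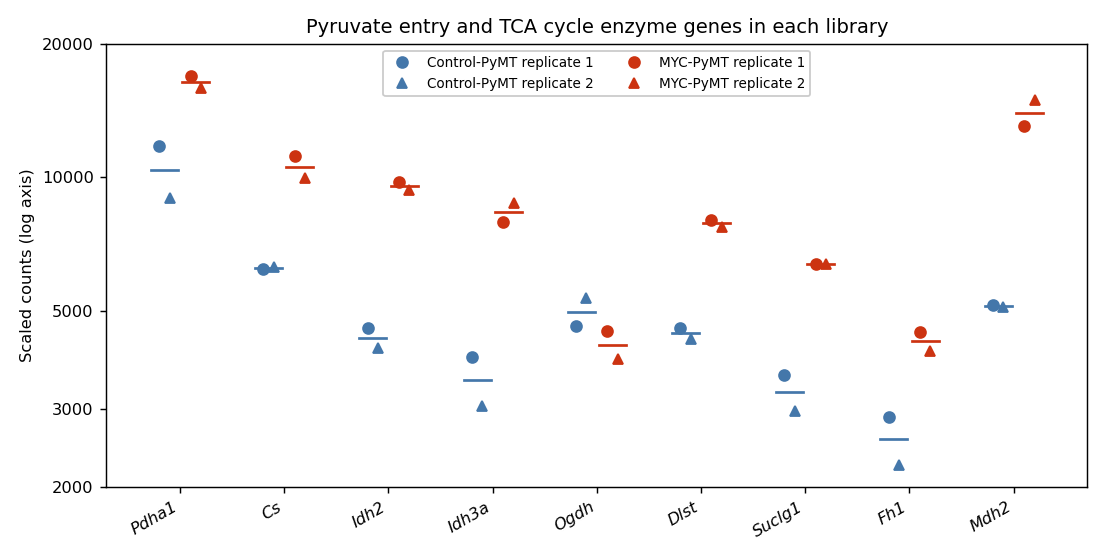
Scaled counts (log axis) of the 9 enzyme genes in each of the 4 libraries, with a bar at each group mean (n = 2). Both MYC-PyMT libraries are above both Control-PyMT libraries for 8 genes, and for Ogdh both are below.

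Entry of pyruvate was represented by Pdha1 (ENSMUSG00000031299.10, X chromosome, 160122209 to 160138413, minus strand, GRCm38), the catalytic E1 alpha subunit of pyruvate dehydrogenase. The controls, replicate 1 before replicate 2 as throughout, gave 11798 and 8978 scaled counts and the MYC tumours 16897 and 15881. The groups did not overlap, but the Control-PyMT libraries lay further apart than those of MYC-PyMT. The log2 change of 0.67 (SE 0.20, limma adjusted p = 0.0220) was the smallest among the 8 called genes. Its call was lost without Control-PyMT replicate 2 (log2 0.47, limma adjusted p = 0.0695), without MYC-PyMT replicate 1 (0.63, 0.144) or replicate 2 (0.72, 0.0915), and without the variance trend (0.0686). Here and below, a fit without 1 library has a group of 1 library, which is assumed to vary like the 2 libraries of the other group. Pdha1 overlaps Map3k15 on the opposite strand. Map3k15 had at most 137 scaled counts in a library, far below Pdha1.

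Citrate synthase, encoded by Cs (ENSMUSG00000005683.7, chromosome 10, 128337734 to 128362479), joins acetyl-CoA to oxaloacetate and is often used as a measure of mitochondrial content. Cs stood at 6219 and 6264 scaled counts among the controls against 11172 and 9947 among the MYC tumours. The Control-PyMT libraries differed by only 0.01 on the log2 scale, and the lowest difference between a MYC-PyMT and a Control-PyMT library was 0.67. The change was 0.76 (SE 0.18, limma adjusted p = 0.00708). Without MYC-PyMT replicate 1 it was 0.67 and did not pass (limma adjusted p = 0.0966). A near copy, Csl, matches 1522 bases of the Cs transcript at 91.9% identity but had no more than 6.55 scaled counts in any library.

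The isocitrate dehydrogenases make 2-oxoglutarate. Idh3a (ENSMUSG00000032279.10, chromosome 9, 54586334 to 54604661) encodes the catalytic alpha subunit of the NAD-dependent enzyme that runs the cycle forward. Its values were 3933 and 3039 scaled counts among the controls against 7943 and 8734 among the MYC tumours, a 2.39-fold ratio of means. The highest Control-PyMT library was well below the lowest MYC-PyMT library, at a log2 change of 1.27 (SE 0.20, limma adjusted p = 0.000656). Idh2 (ENSMUSG00000030541.16, chromosome 7, 80094846 to 80115392) encodes the NADP-dependent mitochondrial enzyme, which can also run in reverse. Idh2 gave 4562 and 4113 scaled counts among the controls against 9752 and 9367 among the MYC tumours. Replicates were close and the groups far apart, with a log2 change of 1.14 (SE 0.18, limma adjusted p = 0.000715). The span of Idh2, introns included, overlaps that of Gm45203 on the same strand over 1831 bases. Where exons are shared, reads of the 2 genes cannot be told apart. Whether their exons overlap was not checked, and the level of Gm45203 is not given here.

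The 2-oxoglutarate dehydrogenase complex was the place where the 9 genes parted. Ogdh (ENSMUSG00000020456.17, chromosome 11, 6291633 to 6356642) encodes its E1 subunit, which decarboxylates 2-oxoglutarate and sets the rate of the complex. It had 4624 and 5326 scaled counts among the controls against 4493 and 3889 among the MYC tumours. Both MYC-PyMT libraries were below both Control-PyMT libraries, though by as little as 0.04 on the log2 scale. The change of -0.25 had a 95% interval of -0.66 to 0.17 and did not pass (SE 0.19, limma adjusted p = 0.299). That interval lay wholly below the intervals of the other 8 genes. Dlst (ENSMUSG00000004789.9, chromosome 12, 85110833 to 85134845) encodes the E2 subunit of the same complex, the succinyltransferase that carries lipoic acid. Dlst stood at 4576 and 4308 scaled counts among the controls against 8018 and 7718 among the MYC tumours. Replicates were close in both groups. Dlst changed by 0.83 on the log2 scale (SE 0.18, limma adjusted p = 0.00388).

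Suclg1 (ENSMUSG00000052738.14, chromosome 6, 73248382 to 73276911) encodes the alpha subunit shared by both succinyl-CoA ligases, the step that makes GTP or ATP directly. Its values were 3582 and 2961 scaled counts among the controls against 6359 and 6378 among the MYC tumours. The MYC-PyMT libraries agreed within 0.0043 on the log2 scale, and the change was 0.97 (SE 0.19, limma adjusted p = 0.00212). Fh1 (ENSMUSG00000026526.14, chromosome 1, 175600374 to 175625635, minus strand), the fumarase gene and a known tumour suppressor, gave 2882 and 2244 scaled counts among the controls against 4475 and 4044 among the MYC tumours. The log2 change in Fh1 was 0.74 (SE 0.20, limma adjusted p = 0.0113). Its call was lost without MYC-PyMT replicate 1 (0.67, limma adjusted p = 0.0860) and without the variance trend (0.0509). Fh1 overlaps Kmo on the opposite strand, and Kmo had at most 30.6 scaled counts. Mdh2 (ENSMUSG00000019179.10, chromosome 5, 135778480 to 135790398), the malate dehydrogenase that returns oxaloacetate to Cs, rose most. It went from 5157 and 5084 scaled counts to 13026 and 14981, a 2.73-fold ratio of means (log2 1.45, SE 0.18, limma adjusted p = 0.000218). Among the 16725 genes tested, Mdh2 ranked 1248 by the size of its rise.

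Levels of different genes were compared per kilobase of the principal transcript. In Control-PyMT, Pdha1 was highest with 3647 ± 700.1 scaled counts per kb (SD, n = 2), followed by Mdh2 with 3517 ± 35.2, and the libraries of these neighbours overlapped. Idh2 (2486 ± 182), Suclg1 (2154 ± 289) and Cs (2133 ± 10.9) formed the next step, each overlapping its neighbour. Dlst (1607 ± 68.5), Idh3a (1451 ± 263) and Ogdh (1205 ± 120) were lower and overlapped in turn, and Fh1 was lowest at 972 ± 171. In MYC-PyMT the order began with Mdh2, at 9618 ± 949 scaled counts per kb, clear of Pdha1 at 5755 ± 252. Pdha1 overlapped Idh2 (5478 ± 156), and Cs (3609 ± 296) overlapped Idh3a (3470.2 ± 233). Suclg1 stood between these pairs at 4193 ± 8.86, Dlst followed at 2847 ± 76.7 and Fh1 at 1616 ± 116. Ogdh was last at 1016 ± 104, so that Ogdh and Fh1, like Idh3a and Dlst, changed places between the groups. A trend with length that differs between libraries remains in these values, and the order was not taken with it removed. Ogdh has the longest principal transcript of the 9 (4127 bases).

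Sequence before the start sites was taken from RefSeq (GRCm38.p6) for 8 of the 9 genes; Idh3a was not matched. Each window covers 250 bases before and 50 after a start, and 4 motifs were searched on both strands: CACGTG (the canonical E-box that MYC and MAX bind), CCGGAAG (ETS factors such as GABPA), CGCATGCG (the NRF1 core) and CAAGGTCA (estrogen-related receptors). No motif holds the letters of another. The E-box was found in the windows of 1 of the 8 genes, Ogdh, against 10.7% of the table's 12988 genes with a window and 7.15% of all 32851 windows. Ogdh has 6 windows and each of the other genes has 1, so it had more bases to hold a match. The ETS motif (16.5% of those genes, 8.86% of windows) was found in Dlst alone, 1 base after its start. The NRF1 core (3.57% of genes, 1.87% of windows) and the receptor motif (1.46% of genes, 1.56% of windows) were found in Ogdh alone. A match describes letters only, and whether any factor bound there was not measured. Both Ogdh E-boxes lie within Ogdh, in exon sequence outside the coding part, 110 bases before the start at 6292170 and 141 bases before the start at 6292558. They are shown on the plus strand with the motif in capitals, beside the other Ogdh matches and the Dlst site, because these are the sites that the motif counts rest on.
Ogdh, chr11:6292048-6292077: gtcgcggcgtgtCACGTGgaccggtcgctc
Ogdh, chr11:6292405-6292434: ggcaagaatcctCACGTGgataccatgtaa
Ogdh, chr11:6292153-6292182, CAAGGTCA read on the other strand: cggacacggcgcTGACCTTGgtgcctgcgg
Ogdh, chr11:6292532-6292561, NRF1 core: ctaggtgttgtgCGCATGCGtaactcaact
Dlst, chr12:85110822-85110851, CCGGAAG read on the other strand: cggccggtctcaCTTCCGGttgctgccggg

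Upstream sequence is shown for a gene that rose and the gene that did not, each as the 250 bases before a start that overlap no annotated exon. Neither holds any of the 4 motifs. The Cs sequence ends 1 base before 128337727 and is 55.2% G or C, and the Ogdh sequence ends 1 base before its first start, 6291597, and is 57.2% G or C. The median of all windows was 52.4%.
Cs, chr10:128337477-128337726, plus strand: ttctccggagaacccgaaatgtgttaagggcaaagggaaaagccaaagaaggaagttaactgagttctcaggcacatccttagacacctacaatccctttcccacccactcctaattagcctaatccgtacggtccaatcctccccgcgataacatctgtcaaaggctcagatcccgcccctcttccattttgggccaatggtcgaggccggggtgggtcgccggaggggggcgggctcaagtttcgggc
Ogdh, chr11:6291347-6291596, plus strand: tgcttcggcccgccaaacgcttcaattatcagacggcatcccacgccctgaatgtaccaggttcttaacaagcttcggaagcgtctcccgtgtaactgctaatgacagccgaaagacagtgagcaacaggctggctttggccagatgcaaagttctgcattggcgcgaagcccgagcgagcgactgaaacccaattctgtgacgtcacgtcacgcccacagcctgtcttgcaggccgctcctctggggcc

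Of 10 other genes of the cycle, 8 were called higher, none lower and 2 did not pass, with a median log2 change of 0.82. Idh3b and Idh3g, the regulatory partners of Idh3a, rose by 0.89 and 1.03 on the log2 scale. Dld, the E3 subunit that pyruvate and 2-oxoglutarate dehydrogenase share, went from 5272 and 4048 scaled counts to 9921 and 10883 (log2 1.17, SE 0.20, limma adjusted p = 0.00111). Suclg2, of the GTP-forming ligase, rose by 1.10 and Sucla2, of the ATP-forming ligase, by 0.70. The Sucla2 call was lost without the variance trend (limma adjusted p = 0.0563) and without MYC-PyMT replicate 2 (0.62, 0.121). Without MYC-PyMT replicate 2, 5 of the 10 were called.

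Succinate dehydrogenase, the enzyme that belongs to the cycle and to the respiratory chain at once, was uneven. The iron-sulfur subunit gene Sdhb stood at 3383 and 2823 scaled counts among the controls against 6691 and 7206 among the MYC tumours, a log2 change of 1.17 (SE 0.19, limma adjusted p = 0.000771). Sdhd, a membrane anchor, rose by 0.76. Its call ended with the transcript length trend removed (0.44, limma adjusted p = 0.0895) and without MYC-PyMT replicate 1 (0.75, 0.0566) or replicate 2 (0.77, 0.0525). The flavoprotein gene Sdha, at 8227 and 7951 against 11020 and 8703 scaled counts, changed by 0.28 with a 95% interval of -0.16 to 0.71 and did not pass. Sdhc, the other anchor, changed by 0.17 (-0.23 to 0.57) and did not pass either. Of 4 assembly factors only Sdhaf1, which helps insert the iron-sulfur clusters of Sdhb, was called (log2 1.40, limma adjusted p = 0.000883). Sdhaf3 (0.56) and Sdhaf4 (0.45) did not pass, though Sdhaf3 did with the length trend removed (0.75, limma adjusted p = 0.0194).

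Pyruvate entry rose in 5 of 6 further genes. Mpc1 and Mpc2, which form the mitochondrial pyruvate carrier, had log2 changes of 0.95 and 0.72, and both were called higher. The call of Mpc2 ended with the length trend removed (0.33, limma adjusted p = 0.170) and without MYC-PyMT replicate 1 (0.69, 0.0756) or replicate 2 (0.75, 0.0558). Pdhb, the partner of Pdha1 in the E1 enzyme, rose from 4409 and 3394 scaled counts to 7355 and 8233 (log2 1.01, SE 0.20, limma adjusted p = 0.00245). Dlat, the E2 core, rose by 1.08 and Pdhx, which tethers E3 to that core, by 1.06. Pcx, the carboxylase that turns pyruvate into oxaloacetate, had a change of 0.67 just short of the threshold (limma adjusted p = 0.0509).

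**Figure D2:**
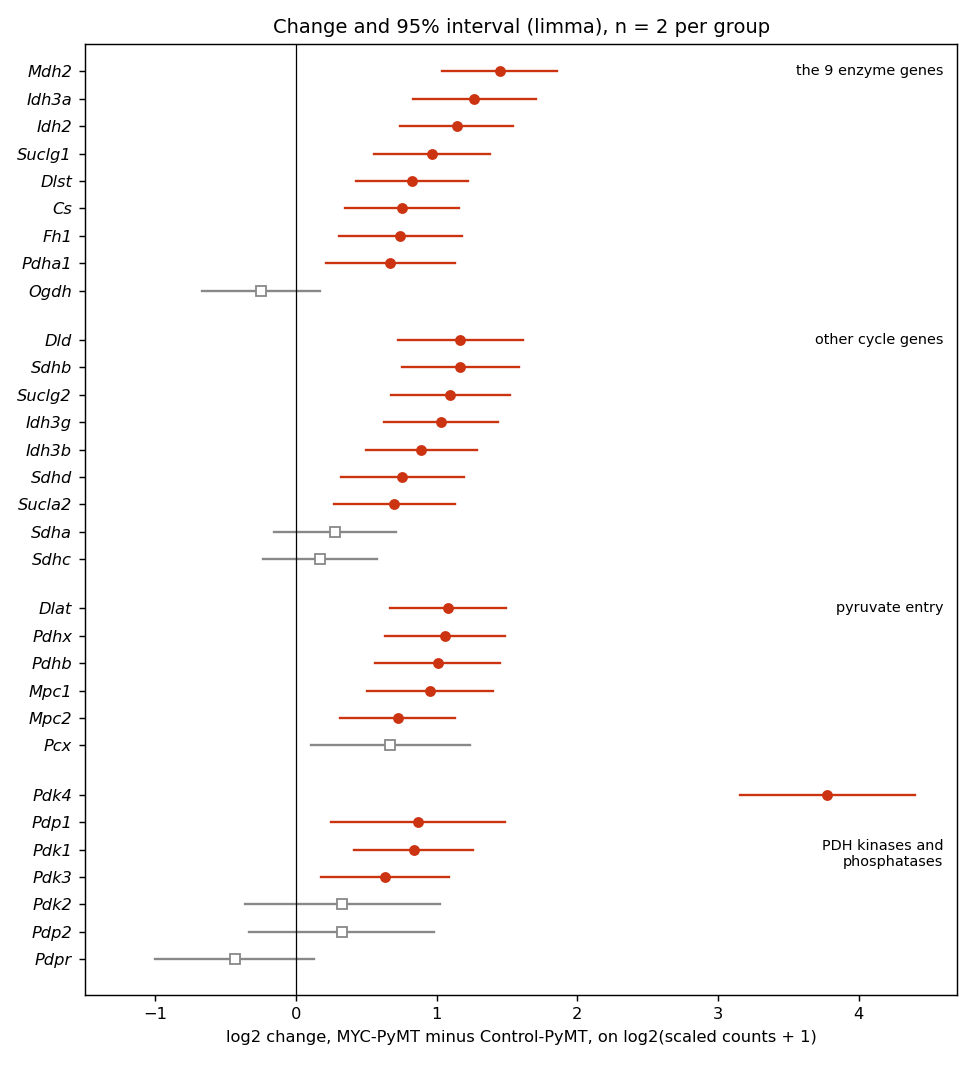
Log2 change (MYC-PyMT minus Control-PyMT, log2 of scaled counts plus 1) with 95% limma intervals for the 9 enzyme genes and genes of 3 lists around them. Filled circles passed the test and open squares did not; Ogdh has the only interval among the 9 that includes 0, and Pdk4 stands far to the right at 3.78.

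Among the kinases that inactivate pyruvate dehydrogenase and the phosphatases that reactivate it, 4 of 7 were called higher and none lower. Pdk4, the kinase induced by fasting and fatty acid use, had the largest log2 change among the pathway genes named here. It had 56.1 and 70.5 scaled counts among the controls against 1020.5 and 749.5 among the MYC tumours, a 14.0-fold ratio of means (log2 3.78, SE 0.28, limma adjusted p = 1.36e-05). Pdk1, the kinase known from the response to low oxygen, was the most abundant, at 6469 and 5313 scaled counts against 10640.3 and 10318. It rose by 0.84 (SE 0.19, limma adjusted p = 0.00510). Pdk3 rose by 0.63 and the phosphatase gene Pdp1 by 0.87. The Pdk3 call was lost under 5 alternatives and the Pdp1 call under 3. Without the variance trend, without Control-PyMT replicate 2 or without MYC-PyMT replicate 2, 2 of these 7 genes were called. Pdk2 gave 1070 and 1937 scaled counts against 2318 and 1413, overlapping groups with no call.

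Skeletal muscle and fat, tissues that use Pdk4 heavily, were checked by their markers. Over 10 muscle markers the summed level was 199 and 1340 scaled counts among the controls against 1047 and 2657 among the MYC tumours. Of the 10, 2 were called higher, against 23.3% of all genes tested. The log2 changes of the 10 were all positive, from 0.98 (Tnnc2) to 3.09 (Myh4). Their median was 1.61, against -0.02 for all genes tested. Over 7 adipocyte markers the sums were 1137 and 4462 against 4925 and 4289, with Fabp4 called higher, Lep lower and 5 not past the test. No measured marker of either list was at 0 in a library. The part of muscle or fat in the Pdk4 values was not tested.

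**Figure D3:**
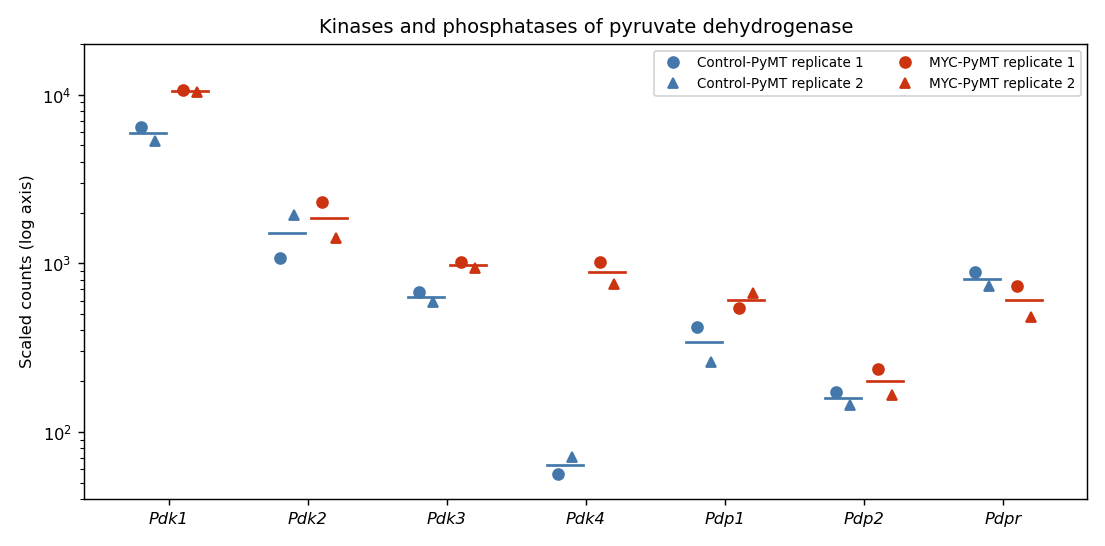
Scaled counts (log axis) of pyruvate dehydrogenase kinase and phosphatase genes in each library, with a bar at each group mean (n = 2). Pdk4 moves from 56.1 and 70.5 to 1020.5 and 749.5, while Pdk2, Pdp2 and Pdpr overlap between groups.

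Lipoic acid, which Dlst and Dlat carry, is made in mitochondria by Lias from a chain that Lipt2 transfers. Lias rose from 1434 and 1158.5 scaled counts to 2685 and 2594 (log2 1.03, limma adjusted p = 0.00185). Lipt2 fell, from 747 and 559 to 354 and 335 (log2 -0.91, limma adjusted p = 0.0108), and this call ended without Control-PyMT replicate 1 (-0.70, limma adjusted p = 0.0570). Mrps36, whose product links E3 to the 2-oxoglutarate dehydrogenase core, had a change of 0.45 that did not pass (limma adjusted p = 0.153). The other 3 of the 6 measured genes of this list did not pass.

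Ratios within a library do not depend on how that library was scaled, and were taken per transcript length. Dividing by length does not remove a trend with length that differs between libraries. The ratios here and below were not taken with that trend removed. Dlst to Ogdh was 1.48 and 1.21 for the controls against 2.66 and 2.96 for the MYC tumours, without overlap. Pdha1 to Pdhb was lower in both MYC-PyMT libraries (1.22 and 1.02) than in Control-PyMT (1.42 and 1.41). Idh3a to Idh3b was higher, 0.657 and 0.739 against 0.594 and 0.485, while Idh3a to Idh3g overlapped. Suclg2 to Sucla2, the GTP-forming to the ATP-forming subunit, was 0.955 and 0.729 in MYC-PyMT against 0.609 and 0.657. Suclg1 to Suclg2, Idh2 to Idh3a and Cs to Acly overlapped between groups. These ratios are given as a description and were not tested.

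The mitochondrial enzymes were set against their cytosolic counterparts. Mdh2 to Mdh1 was 0.905 and 1.03 for the controls against 1.63 and 1.98 for the MYC tumours, without overlap. Mdh1, of the malate-aspartate shuttle, rose by 0.55 (limma adjusted p = 0.0336), against 1.45 for Mdh2. Idh2 to Idh1 was 1.40 and 1.68 against 3.43 and 2.69. Idh1, at 4297 and 3239.5 against 3752 and 4600 scaled counts, overlapped between groups and did not pass (log2 0.15, 95% interval -0.31 to 0.62).

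**Figure D4:**
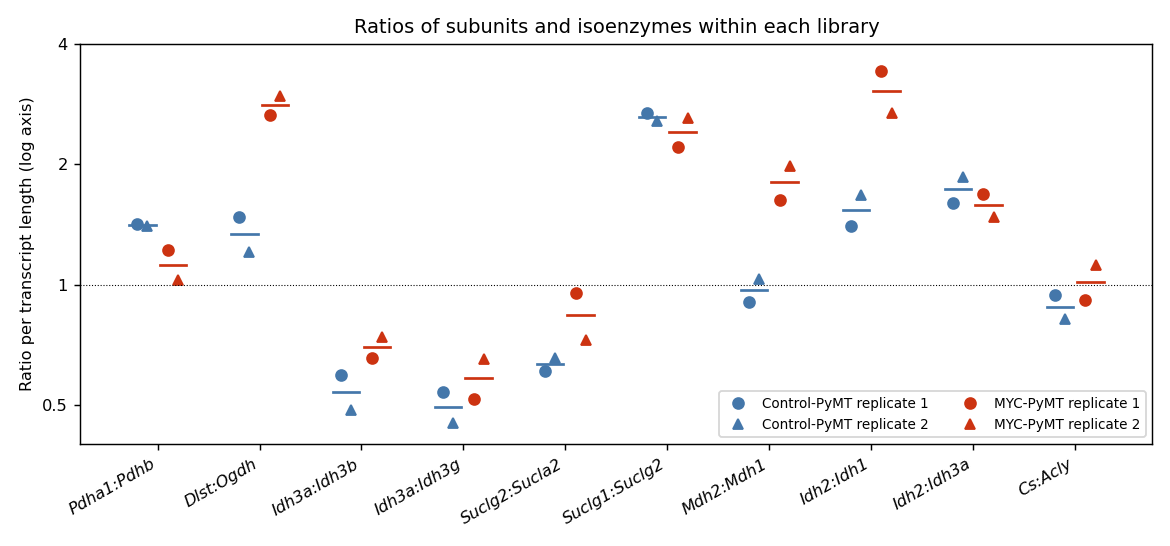
Ratios of 10 gene pairs within each library, per transcript length (log axis), with a bar at each group mean (n = 2). The MYC-PyMT libraries lie above Control-PyMT for Dlst:Ogdh, Idh3a:Idh3b, Suclg2:Sucla2, Mdh2:Mdh1 and Idh2:Idh1, below for Pdha1:Pdhb, and overlap for the rest.

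Among cytosolic counterparts, malic enzymes and carriers of cycle intermediates, 3 of 12 were called higher, 1 lower and 8 did not pass. Their median log2 change was 0.31, and the share called higher was near the 23.3% of all genes tested. Me2, a mitochondrial malic enzyme that makes pyruvate from malate, rose from 694 and 573 scaled counts to 2175 and 2078 (log2 1.75, SE 0.20, limma adjusted p = 0.000116). Me3, the NADP-dependent mitochondrial malic enzyme, fell from 57.0 and 63.7 to 8.05 and 12.1 (log2 -2.49, SE 0.42, limma adjusted p = 0.00110). Slc25a1, the citrate carrier, rose by 0.83 (limma adjusted p = 0.00371), and Acly, which splits citrate in the cytosol, had a change of 0.55 that did not pass (limma adjusted p = 0.0572).

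Routes that feed or drain the cycle were called higher in 10 of 13 measured genes and lower in none, with a median of 0.80. Without MYC-PyMT replicate 1 the number was 5. Got1, the cytosolic aspartate aminotransferase, rose from 860 and 886 scaled counts to 3880 and 3037 (log2 1.97, SE 0.20, limma adjusted p = 6.15e-05). Pck2, which turns oxaloacetate into phosphoenolpyruvate inside mitochondria, rose from 1695 and 1622 to 5703 and 5508 (log2 1.76, limma adjusted p = 6.15e-05).

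Regulators of mitochondrial genes split. Of 11, 6 were called higher, 1 lower and 4 did not pass. Pprc1 and Ppargc1b, coactivators of the PGC-1 family, rose by 1.59 and 2.39 on the log2 scale, the latter from 26.2 and 62.0 scaled counts to 220 and 212. Ppargc1a, of the same family, gave 166 and 125 against 240 and 110, overlapping groups with no call (log2 0.17). Esrrg, an estrogen-related receptor known from oxidative tissues, fell from 785 and 857 to 331 and 160 (log2 -1.83, SE 0.32, limma adjusted p = 0.00138). Esrra, another such receptor, had a change of 0.61 that did not pass (limma adjusted p = 0.0578). Without the variance trend 3 of the 11 were called higher.

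The 5 tested genes whose pattern over the 4 libraries lay nearest to the median pattern of the 9 enzyme genes were Slc25a3, Timm17a, Med18, Naa25 and Pcgf5. Distance was Euclidean on log2 values centred per gene, and ran from 0.04 for Slc25a3, the mitochondrial phosphate carrier gene, to 0.06 for Pcgf5. Slc25a3 had 8888 and 7775 scaled counts among the controls against 15964 and 15035 among the MYC tumours. Timm17a, of the inner membrane import channel, had 2002 and 1719 against 3532 and 3362. With 4 libraries many patterns are alike: 678 genes lay within 0.25 of the median pattern.

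The 9 genes differ in the length of their principal transcripts. The 3 with the shortest principal transcripts, Mdh2 (1456 bases), Suclg1 (1519) and Idh2 (1745), had log2 changes of 1.45, 0.97 and 1.14, and the longest, Ogdh (4127), had -0.25. Between them in length, Idh3a (2403 bases) had 1.27. Fh1 (2636), Dlst (2764), Pdha1 (2848) and Cs (2926) had 0.74, 0.83, 0.67 and 0.76. With each library's trend with length removed, the values of Mdh2, Suclg1, Idh2 and Ogdh were 1.21, 0.75, 0.99 and -0.08, and the same 8 of 9 passed. The part of transcript length in the enzyme changes was not tested. Luminal epithelial markers, summed over 8 genes, went from 131297 and 128890 scaled counts to 99838 and 106113, with 3 of 8 called lower and none higher. Leukocyte markers summed to 7266 and 7937 against 6284 and 6527, with 5 of 10 lower and 1 higher, and endothelial markers to 2503 and 3323 against 4565 and 5657, with 4 of 7 higher. Fibroblast markers overlapped in sum (15196 and 24450 against 17860 and 23443), with 2 of 7 called higher and 2 lower. Col1a1 (log2 1.21) and Pdgfrb (0.77) were higher, and Dcn (-2.22) and Pdgfra (-1.31) were lower. Of 9 neutrophil markers, 5 were called higher and 1, Ltf, lower. They summed to 34731 and 21597 against 10078 and 10053, mostly Ltf, which mammary epithelium also makes, and Camp was at 0 in Control-PyMT replicate 2. S100a8, whose promoter drives Cre, gave 2338 and 639 against 1564 and 2524 scaled counts and did not pass. Beside these marker counts, 23.3% of all genes tested were called higher and 24.6% lower. The part of cell mixture in the enzyme changes was not tested.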

How the data were processed

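Poly(A)-selected RNA of 4 tumour samples was sequenced from a strand-specific kit, per the labels' protocols, with RNA integrity numbers from 3.3 to 9.6 that the labels do not tie to samples. The authors deposited scaled counts (a signal that is not divided by gene length). Per the submitters' processing notes HISAT2 and DESeq2 were used, with mm10 and GRCm38.p5 given as genome builds. How reads were assigned to genes, with which strand option and annotation, is not given in the sources used here. All values were whole multiples of 1 read within 0.001 reads (100% of values), so reads could be recovered. The main test was two-sided limma 3.58.1 (lmFit, then eBayes with trend) of log2(value + 1). Genes needed 10 or more in at least 2 libraries. This scale understates changes of low genes. Positions and transcript lengths (the principal transcript) came from GENCODE mouse release 21, which held 20463 of the genes and lacked 92. Copies were sought with blastn at 90% identity over 100 bases or more.

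The members and gene lists were chosen with earlier results of these data known. Named genes were the 9 members, every called gene of the lists of cycle genes, pyruvate entry and pyruvate dehydrogenase regulators, the 3 with the smallest p of each other pathway list, and the 5 nearest patterns. Of these, 2 genes are counted in their lists but not reported here by name. Others, such as Sdha, Sdhc, Pcx, Pdk2, Mdh1, Idh1, Acly, Ppargc1a, Esrra, Myc, the overlapping genes and copies, and the markers, were named after their values were seen. Ucp1 and Acod1 were not analysed here, and Kgd4 is the same gene as Mrps36 and was counted once. The 15 alternatives included edgeR 4.0.16 and DESeq2 1.42.0 on the recovered reads. The procedure was run on simulated data with spread estimated from these same libraries. A far smaller share of genes was changed there than was called here, so that run does not give the error rate in these data.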

Additional observations from a re-analysis of the deposited data

How the results depend on the processing

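Of 135 values of the 9 enzyme genes under 15 alternatives, 128 kept their direction and side of the threshold, 7 lost the call and none changed direction. Leaving out 1 library at a time, the log2 change was 0.67 to 0.84 for Cs, 0.56 to 0.92 for Fh1 and 0.47 to 0.87 for Pdha1, and 5 to 8 of the 9 were called higher, with 5 when MYC-PyMT replicate 1 was left out. Without the variance trend Fh1 (0.74) and Pdha1 (0.67) lost the call and 6 of the 9 were called; among regulators 3 mitochondrial biogenesis genes and 2 pyruvate dehydrogenase kinases and phosphatases were called higher. On the recovered reads, edgeR and DESeq2 each called 8 of the 9 higher and 0 lower, and limma also had 0 lower without adjustment. Leaving out single libraries, genes called higher numbered 2566 to 3662 in all, 5 to 8 of the other cycle genes, 5 to 9 of the feeding routes, 2 to 4 of the pyruvate dehydrogenase regulators, 1 to 2 of the assembly factors, and 0 to 1 lipoylation genes were lower. With the length trend removed 2 assembly factors were called, and Mrps36 (-0.13) and Sdhaf4 (-0.13), neither called, changed sign; Sdhaf4 passed without Control-PyMT replicate 1 (0.77). Upper-quartile scaling moved the median of all genes from -0.02 to -0.12 and that of the 9 enzyme genes from 0.83 to 0.72; it called 3401 genes higher and 4659 lower. Among 480 values of the other named genes 457 kept direction and call. The cause of the lost calls was not tested, and fits without 1 library also had fewer libraries. With the replicate number as a block, 8 of the 9 were again called higher and none lower, and 3887 and 4152 genes in all; same-numbered libraries did not deviate together across genes (r = -0.089), so the numbers were not taken as pairs. Each of the 9 had at least 2244 scaled counts in every library, and 2 libraries per group limit the precision.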
